A study of Arabidopsis thaliana with 19 samples.

Results

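The genes described here are 10 transcription factor genes that set the upper and lower sides of the Arabidopsis leaf, taken by locus identifier from the 27444 nuclear protein-coding genes. They are PHB (AT2G34710), PHV (AT1G30490), REV (AT5G60690), ATHB8 (AT4G32880) and ATHB15 (AT1G52150) of the class III homeodomain-leucine zipper (HD-ZIP III) family, KAN1 (AT5G16560), the YABBY genes FIL (AT2G45190; YAB1) and YAB3 (AT4G00180), and AS1 (AT2G37630) and AS2 (AT1G65620). Their chromatin was examined in sperm of Arabidopsis thaliana ecotype Col-0, labelled as wild type but sorted by fluorescence from a line carrying ProHTR10:HTR10-Clover, a fluorescent fusion of the sperm histone H3 variant H3.10 under its own promoter. Mononucleosomes released with micrococcal nuclease were immunoprecipitated for H3K4me3 (3 samples), H3K27ac (3), H3K27me1 (2) and H3K27me3 (2), from the chromatin of a set of 3 input samples. H3K4me3 and H3K27ac were each drawn from all 3 of these preparations. H3K27me1 and H3K27me3 were each drawn from 2 of them, with only preparation 3 in common, so the lists share part of their chromatin and are not independent. The other samples of the 19 in the series, 3 immunoprecipitations of H3.10 and their own set of 3 inputs, were not used here.

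HD-ZIP III proteins specify the upper (adaxial) side of the leaf, the meristem and vascular tissue, and their transcripts are cut through the microRNAs miR165 and miR166. KANADI proteins such as KAN1 and YABBY proteins such as FIL and YAB3 act on the lower (abaxial) side, and the MYB protein AS1 and the LOB-domain protein AS2 work together as a repressor that keeps meristem genes off in leaves. As background, H3K4me3 and H3K27ac are marks of transcribed genes, H3K27me3 is set by Polycomb repressive complex 2, and H3K27me1 is known from silent chromatin. In somatic Arabidopsis tissue many regulators of development are Polycomb targets.

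The measurements were 8 deposited lists of peaks, 1 narrow and 1 broad per mark. Each peak has a fold from the authors, which is its immunoprecipitation signal divided by the control signal that the peak caller expects there, and a −log10 q. One list stands for all replicates of a mark. No value below therefore has a replicate error or a test, and the depth per sample is unknown. Narrow lists served as the main lists for H3K4me3 and H3K27ac, and broad lists for H3K27me1 and H3K27me3. A gene was counted for a mark if peaks covered 150 bp or more of the gene together with 1 kb on either side. Fold and q of broad peaks did not follow those of the narrow peaks beneath them (Spearman's rho of the folds −0.0562 over 11079 broad H3K4me3 peaks, −0.151 over 1795 of H3K27me1 and −0.0468 over 457 of H3K27me3, as a description of peaks from the same libraries). Whether a broad fold or q belongs to its coordinates is thus unsettled. The gene table used gives no strand, so positions are stated from the end of the gene with the lower coordinate. Peaks of H3K4me3 lay on 6 of 6 sperm marker genes (folds 4.23 to 6.33), on 4 of 4 pollen vegetative cell markers (2.5 to 6.18) and on 2 of 3 leaf mesophyll markers (1.8 to 3.27). Since 75.2% of all gene spans had such peaks, these counts do not tell the cell types apart. Broad H3K27me3 also lay on the vegetative cell markers VGD1 (1652 bp) and ANX2 (2520 bp). The mesophyll marker without H3K4me3, RBCS1A, had H3K27ac (770 bp).

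Most leaf polarity genes carried H3K4me3 in sperm, fewer carried H3K27ac, and 3 of them, KAN1, YAB3 and AS2, carried H3K27me3. H3K4me3 marked 8 of the 10, beside 84.0% of all genes, and left out ATHB15 and FIL; the broad list gave 7, also without PHB, beside 68.1%. H3K27ac marked 5 (ATHB8, KAN1, FIL, YAB3 and AS2), beside 69.1% of all genes. H3K27me1 marked 3 in the broad list (PHV, KAN1 and FIL), beside 12.6%, and 7 in the narrow list, beside 38.6%. H3K27me3 marked 3 in the broad list, beside 5.24%, and KAN1 and AS2 in the narrow list, beside 1.76%.

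Counted over the gene span without flanks, H3K27ac was counted on 3 members (ATHB8, KAN1 and FIL), beside 55.9% of all genes. The counts of the other marks were unaffected, with 8 for H3K4me3 (75.2% of all genes), 3 for H3K27me1 (8.79%; 7 and 26.9% in the narrow list) and 3 for H3K27me3 (4.03%; 2 and 1.48% in the narrow list). The members are long genes, from 2249 bp (AS1) to 5312 bp (ATHB8), with a median of 4937 bp against 2078 bp over all genes. Among the 10897 genes in that range of lengths, spans were marked by H3K4me3 in 86.0%, by H3K27ac in 65.6%, by narrow H3K27me1 in 26.1% and by broad H3K27me3 in 3.54%. No member had a peak in the broad H3K27ac list, which holds 163 peaks and marked 0.557% of all gene spans. With 10 genes these shares are coarse, and they carry no test.

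**Figure D1:**
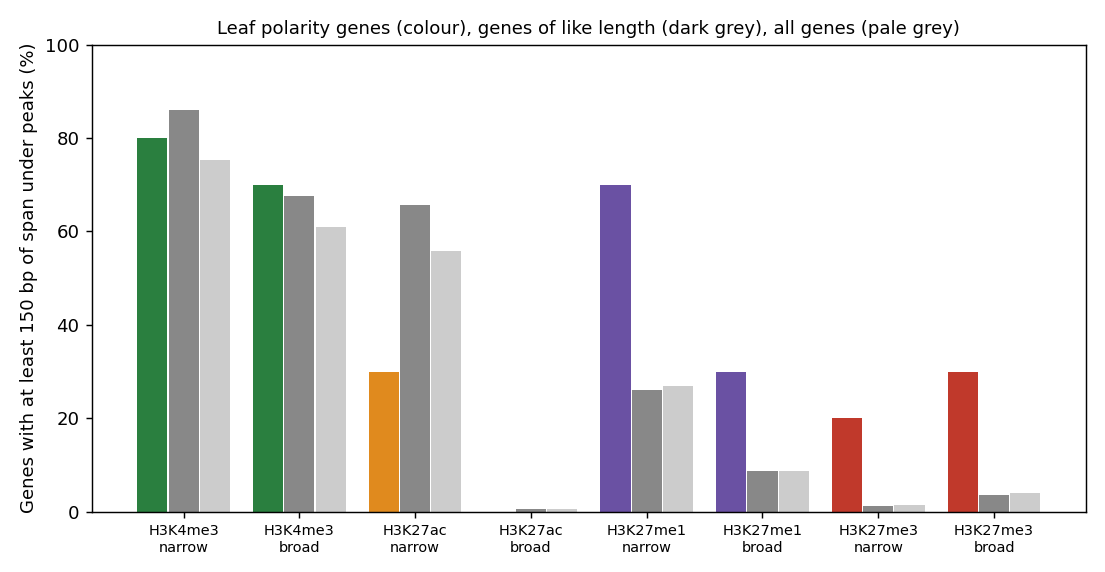
Percent of genes with at least 150 bp of their span under peaks, in each of the 8 lists, for the 10 leaf polarity genes (coloured bars), for the 10897 genes in their range of lengths (dark grey) and for all 27444 genes (pale grey). The coloured bar is under the grey bars for both lists of H3K27ac, and is at 0 in the broad one. It is over them for broad H3K4me3 and for both lists of H3K27me1 and H3K27me3. For narrow H3K4me3 it lies between them. In a coloured bar 1 gene is 10 points.

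The H3K4me3 on the leaf polarity genes was of low fold. All 12 narrow H3K4me3 peaks that touched a member had folds from 1.67 to 3.03, with a median of 2.19, against a median of 3.7 over the 22150 peaks of the list. Taken by gene, the highest fold over the span was 3.03 at REV, 2.83 at YAB3, 2.63 at KAN1 and 2.51 at ATHB8, followed by 2.2 at PHB, 2.18 at PHV, 2.16 at AS1 and 2.07 at AS2. All 8 lay below 3.7, as did 40.8% of all genes with H3K4me3 over their span and 37.2% of those in the same range of lengths. The share of marked genes with a lower fold was 25.4% for REV, the highest of the 8, and 6.73% for AS2, the lowest. No replicate error is at hand to say which of these neighbouring folds differ.

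The strongest H3K4me3 within 1 kb of any member belonged to peaks that reach into a neighbouring gene and not into the member. A peak of fold 5.83 (chromosome 4, 71202 to 72194) ends 351 bp before YAB3 and covers part of AT4G00170. A peak of fold 5.59 (chromosome 5, 5403158 to 5406097) ends 766 bp before KAN1 and covers parts of ZFN3 (AT5G16540) and AT5G16550. Both exceed at least 87.7% of the list, and neither is needed for the H3K4me3 call of its member, which holds over the gene span alone.

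**Figure D2:**
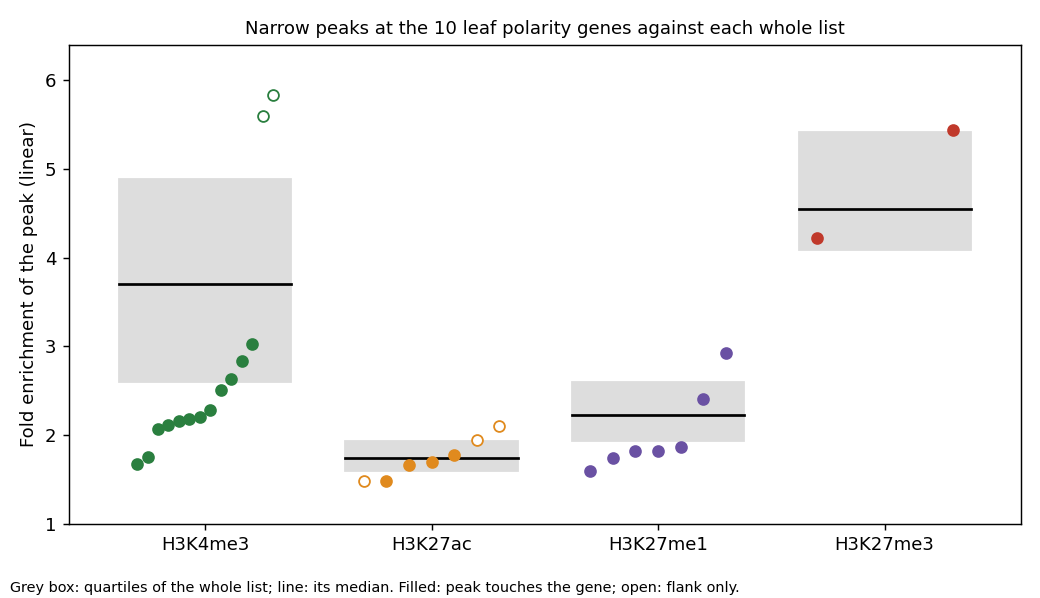
Fold enrichment (linear scale) of every narrow peak within 1 kb of the 10 genes, by mark, with 1 point per peak. Filled points touch the gene and open points lie in the flank only; grey boxes span the quartiles of the whole list and the line is its median. All 12 filled H3K4me3 points lie under the list median of 3.7, and the 2 open points at 5.59 and 5.83 lie at neighbours of KAN1 and YAB3.

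Within the HD-ZIP III family the 5 genes showed 4 different arrangements of marks over their spans in the narrow lists, and none had H3K27me3. PHB and PHV, sister genes within the family, both carried H3K4me3 near the end with the higher coordinate. In PHB the single peak was 740 bp wide (chromosome 2, 14643486 to 14644225), had fold 2.2 and covered 14.7% of the gene, with its summit 4568 bp from the lower end. In PHV the stronger of 2 peaks (chromosome 1, 10800447 to 10800998) had fold 2.18 with its summit 4531 bp from the lower end, and a weaker one of fold 1.67 lay further inside the gene. These summits lay 464 bp (PHB) and 438 bp (PHV) from the nearest gene end.

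PHB and PHV differed in H3K27me1. PHV had a peak of 1189 bp in the narrow list (chromosome 1, 10797067 to 10798255, fold 1.87) and one of 1733 bp in the broad list, in the part of the gene away from its H3K4me3, with no base shared between the marks. PHB had no H3K27me1, H3K27ac or H3K27me3 peak over its span or within 1 kb, and its H3K4me3 peak was not called in the broad list. The nearest narrow H3K27me1 peak to PHB was 2471 bp away. Of all genes, 14.7% had H3K4me3 alone in the narrow lists, as PHB did.

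REV, which acts in vascular and stem patterning as well as in the leaf, had the highest H3K4me3 fold of the members. Its peak was 964 bp wide (chromosome 5, 24397132 to 24398095) with the summit 606 bp from the lower end and fold 3.03, and 34.9% of the list was lower. A small narrow H3K27me1 peak of 398 bp and fold 1.59 lay further in, 2096 bp from the lower end, with no base in common. Its fold was higher than that of 2.23% of the list only.

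ATHB8 and ATHB15, the family members best known from vascular development, shared wide H3K27me1 and differed in the active marks. In ATHB15 a single narrow H3K27me1 peak of 4697 bp (chromosome 1, 19409876 to 19414572, fold 2.93) covered 92.5% of the gene, and there was no peak of any other mark over it or within 1 kb. In ATHB8 a narrow H3K27me1 peak of 3825 bp (chromosome 4, 15863964 to 15867788, fold 2.41) covered 72.0% of the gene. Such wide cover was uncommon among all genes and among those in the members' range of lengths, 2249 to 5312 bp. At least 70% of the span was covered in 8.02% of all genes and in 4.05% of those in that range. At least 90% was covered in 3.94% and 0.89%. No share was taken for genes only as long as ATHB8 and ATHB15, which are at the upper end of that range.

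Unlike ATHB15, ATHB8 also had H3K4me3 and H3K27ac inside its H3K27me1 peak. Its H3K4me3 peaks, of 1000 bp with fold 2.28 and of 1016 bp with fold 2.51, shared 1962 of their 2016 bp with the H3K27me1 peak. The H3K27ac peak of 718 bp (fold 1.7) lay wholly within both. The closest narrow H3K4me3 peak to ATHB15 was 2802 bp from the gene. Neither gene was marked in the broad H3K27me1 list, where the nearest peaks were 47026 bp from ATHB8 and 26461 bp from ATHB15, so this cover rests on the narrow list.

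**Figure D3:**
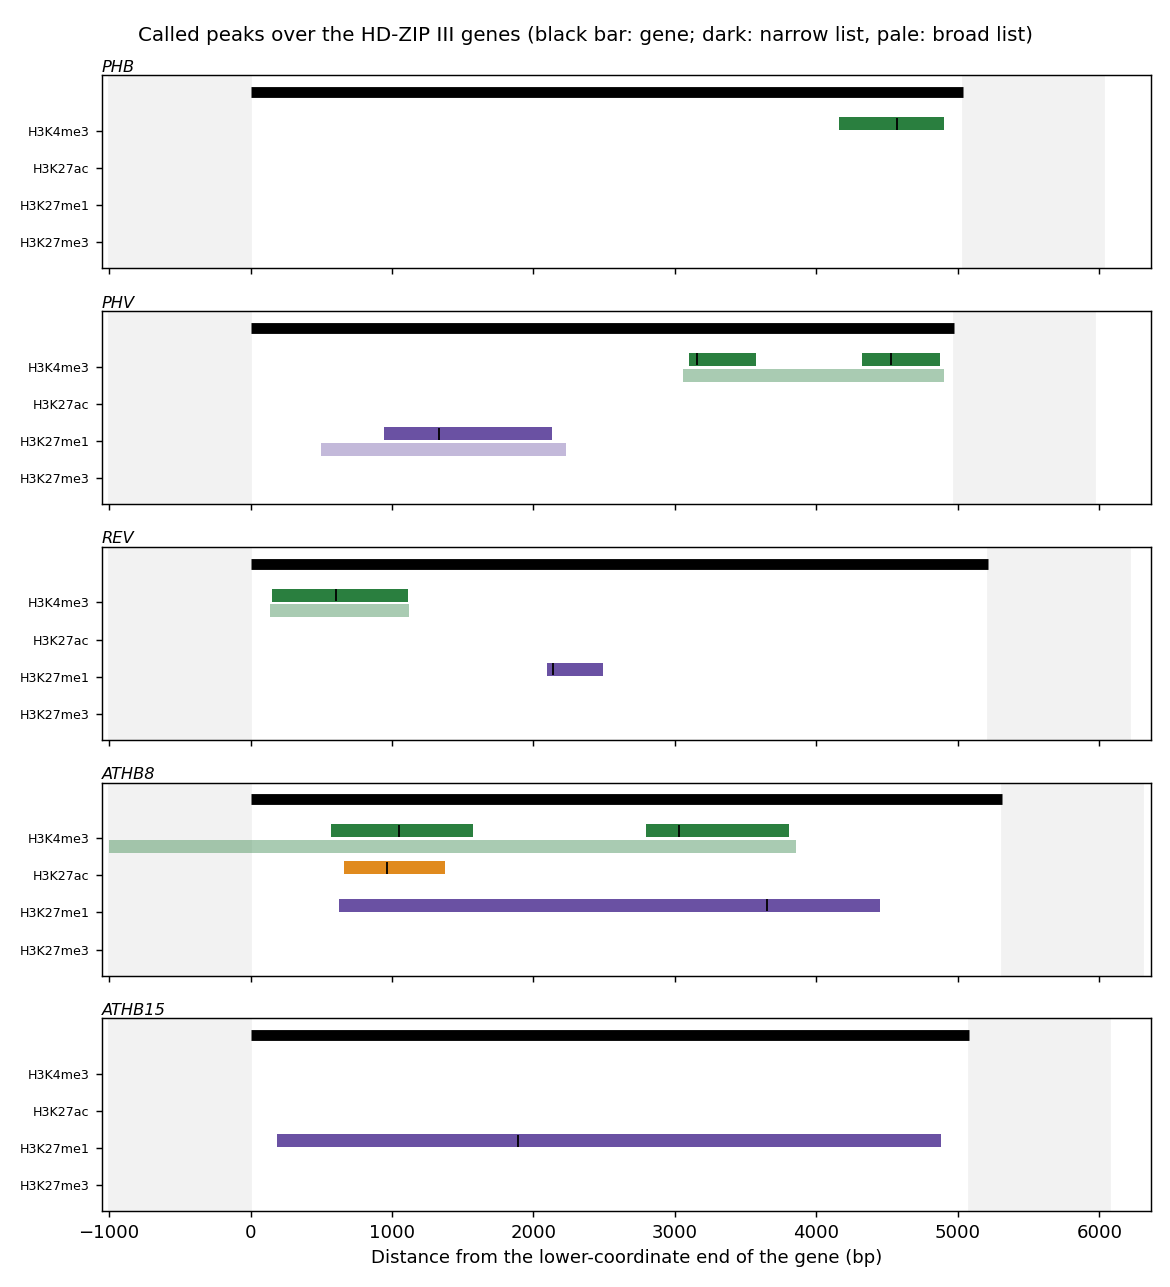
Peaks of the 8 lists over the 5 HD-ZIP III genes, drawn to scale by distance in bp from the lower-coordinate end; the black bar is the gene, grey areas are the 1 kb flanks, dark boxes are narrow peaks with a tick at the summit, and pale boxes are broad peaks cut at the flank's edge. PHB and PHV have H3K4me3 near the right end, and H3K27me1 runs over 72.0% of ATHB8 and 92.5% of ATHB15.

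KAN1, the abaxial factor, was the only member with all 4 marks in the main lists, and again in the narrow lists, a combination found over the spans of 0.186% of all genes in the main lists and 0.153% in the narrow lists. The marks met at one place. In the part of the gene nearer its higher end lay a narrow H3K27me3 peak of 600 bp (chromosome 5, 5410358 to 5410957, fold 5.44, −log10 q 8.05), whose fold exceeded 75.3% of its list. Narrow peaks of H3K4me3 (fold 2.11) and H3K27ac (fold 1.66) covered 97.8% and 98.3% of it, and a narrow H3K27me1 peak of 1334 bp (fold 1.82) covered all of it. No H3K4me3 peak of the broad list lay at this place. At a separate place 1185 to 1689 bp from the lower end, H3K4me3 (fold 2.63) and H3K27ac (fold 1.77) lay together with no other mark. The broad H3K27me1 peak over KAN1 also touched AT5G02555, an lncRNA gene that overlaps the KAN1 span.

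The YABBY paralogues FIL and YAB3, which act together on the abaxial side, had different marks. YAB3 carried H3K4me3 over 41.7% of its span (1263 bp, chromosome 4, 73943 to 75205, fold 2.83) and a broad H3K27me3 peak of 624 bp (chromosome 4, 74472 to 75095) that lay wholly within it. The deposited fold of this H3K27me3 peak was 3.84, higher than 98.0% of the broad list, with −log10 q 6.8, but no narrow H3K27me3 peak was called, and the nearest was 29392 bp from the gene. A narrow H3K27me1 peak of 468 bp (fold 1.74) overlapped it by 375 bp. The H3K27ac that marked YAB3 lay outside the gene, in a peak of fold 2.1 over its neighbour AT4G00170.

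FIL had neither H3K4me3 nor H3K27me3, and the nearest narrow H3K4me3 peak was 3159 bp away. It had a small H3K27ac peak of 335 bp (chromosome 2, 18629309 to 18629643, fold 1.48), a fold higher than 9.13% of the list. Beside it, without overlap, lay a narrow H3K27me1 peak of 642 bp (fold 1.82) and a broad one of 956 bp. H3K27ac with H3K27me1 and no other mark was found over 0.295% of all gene spans in the main lists and 0.875% in the narrow lists.

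AS1 and AS2 encode partners of one complex, and their genes differed in H3K27me3. AS1 had H3K4me3 alone, in a peak of 1156 bp over 48.9% of its span (chromosome 2, 15782382 to 15783537, fold 2.16). AS2 had H3K4me3 in 2 peaks, one across its lower end (fold 2.07, summit 7 bp outside the gene) and one of 584 bp near the other end (chromosome 1, 24400182 to 24400765, fold 1.75). On the second lay a narrow H3K27me3 peak of 471 bp (chromosome 1, 24400315 to 24400785, fold 4.22, −log10 q 4.4), of which 95.8% was shared with H3K4me3. Its fold exceeded 34.3% of the list.

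The broad list has the same AS2 region as a peak of 646 bp with −log10 q of 1.21, a q value over 0.05, as it is for 1047 of the 1423 peaks (73.6%) of that list, whose median −log10 q is 0.835. For H3K4me3 at this place, the broad list gives −log10 q 24.4 and the narrow list 7.17, an example of the mismatch stated above. The H3K27ac that marked AS2 was a peak of 481 bp and fold 1.48 wholly in the flank, 507 bp from the gene. AS1 had no H3K27me1 or H3K27me3 within 1 kb, and its nearest H3K27ac peak was 1039 bp away, just outside the window.

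**Figure D4:**
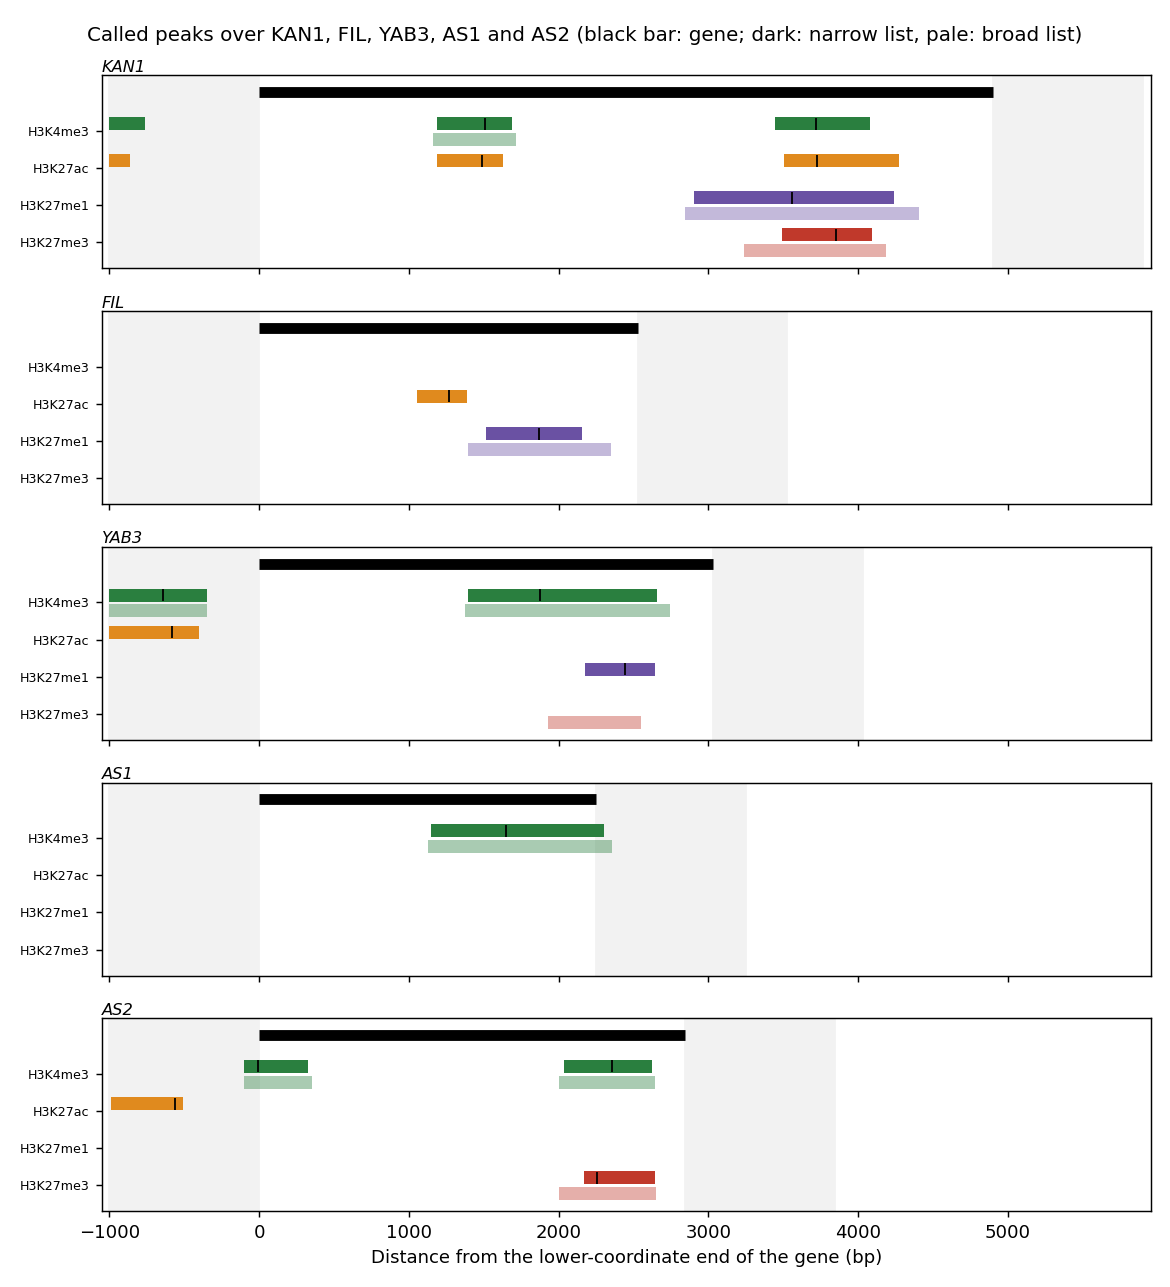
Peaks of the 8 lists over KAN1, FIL, YAB3, AS1 and AS2, drawn to scale by distance in bp from the lower-coordinate end, with the gene as a black bar, the 1 kb flanks in grey, narrow peaks dark with a tick at the summit, and broad peaks pale. The H3K27me3 boxes of KAN1, YAB3 and AS2 each lie over a narrow H3K4me3 box inside the gene.

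In all 3 members with H3K27me3, the mark lay inside the gene and on H3K4me3 peaks of the narrow list. With H3K4me3 peaks of the broad list, the broad H3K27me3 peak shared 0 bp at KAN1, 624 bp at YAB3 and 643 bp at AS2. The bases shared with narrow H3K4me3 peaks were 636 of the 952 bp of the broad H3K27me3 peak at KAN1, 624 of 624 bp at YAB3 and 584 of 646 bp at AS2. Such sharing was frequent elsewhere: of the 864 genes with both marks over their spans, 805 (93.2%) shared at least 150 bp, and 58.7% of all 1423 broad H3K27me3 peaks touched a narrow H3K4me3 peak. For H3K4me3 and H3K27me1, 5 members had both over their spans in the narrow lists. ATHB8, KAN1 and YAB3 shared at least 150 bp between these 2 marks, and PHV and REV shared none. Of the 4531 genes with H3K4me3 and H3K27me1, 81.6% shared that much, as did 71.9% of those in the members' range of lengths.

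Many H3K4me3 summits in members stood well inside the gene. Of 11 summits within member spans, 8 were over 500 bp from both ends, with a median distance to the nearest end of 1047 bp and a range of 438 to 2279 bp. Summits outside a span were not counted, in members or in other genes. This left out the peak across the lower end of AS2, whose summit lay 7 bp outside the gene. In genes of the same range of lengths, 31.3% of 9780 summits were over 500 bp from both ends and the median distance was 381 bp. For the 6 members of 4904 to 5312 bp the count was 6 of 8 summits, beside 31.7% of 407 summits in genes of those lengths. These are descriptions, since several summits share a gene.

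The wider polarity pathway was read from a list of 41 genes, of which 26 are protein-coding. H3K4me3 marked 20 of the 26 (84.0% of all genes), H3K27ac 19 (69.1%), broad H3K27me1 2 (12.6%; 11 and 38.6% in the narrow list) and broad H3K27me3 2 (5.24%; 0 and 1.76% in the narrow list). Of the 7 KANADI and YABBY homologues in the list, H3K4me3 marked 2, which were KAN2 (AT1G32240), with fold 1.56, and CRC (AT1G69180), a carpel and nectary factor, with fold 1.93. YAB2 (AT1G08465) had no peak of any of the 8 lists within 1 kb. YAB5 (AT2G26580) and INO (AT1G23420), an ovule factor, had narrow H3K27me1 only, over 406 and 1164 bp of their windows. At YAB5 it lay in the flank only, and at INO 403 bp of it lay over the gene. KAN4 (AT5G42630), which acts in the ovule integument, had H3K27ac (fold 1.65) and narrow H3K27me1. KAN3 (AT4G17695) had 135 bp of an H3K4me3 peak in its flank, under the threshold, and H3K27ac of fold 1.92.

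Several genes that act beside these factors had higher H3K4me3 folds over their spans than any member had over its own. The highest among protein-coding pathway genes were 5.49 at JLO (AT4G00220), a LOB-domain partner of AS2, 5.48 at ETT (AT2G33860), an abaxial auxin response factor, and 5.28 at DCL1 (AT1G01040), which processes microRNAs. All 7 genes for small RNA proteins, a group formed after values were seen, were marked, beside 84.0% of all genes, with folds over their spans from 1.96 at AGO7 (AT1G69440) to that of DCL1 and a median of 3.84. The coactivator gene AN3 (AT5G28640) had no H3K4me3 and a narrow H3K27me1 peak of fold 3.75. Broad H3K27me3 lay on WOX1 (AT3G18010; 1625 bp, fold 1.67) and PRS (AT2G28610; WOX3; 754 bp, fold 2.01), homeobox genes of the leaf margin, and both also had H3K4me3 (folds 3.97 and 2.02) and H3K27ac.

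**Figure D5:**
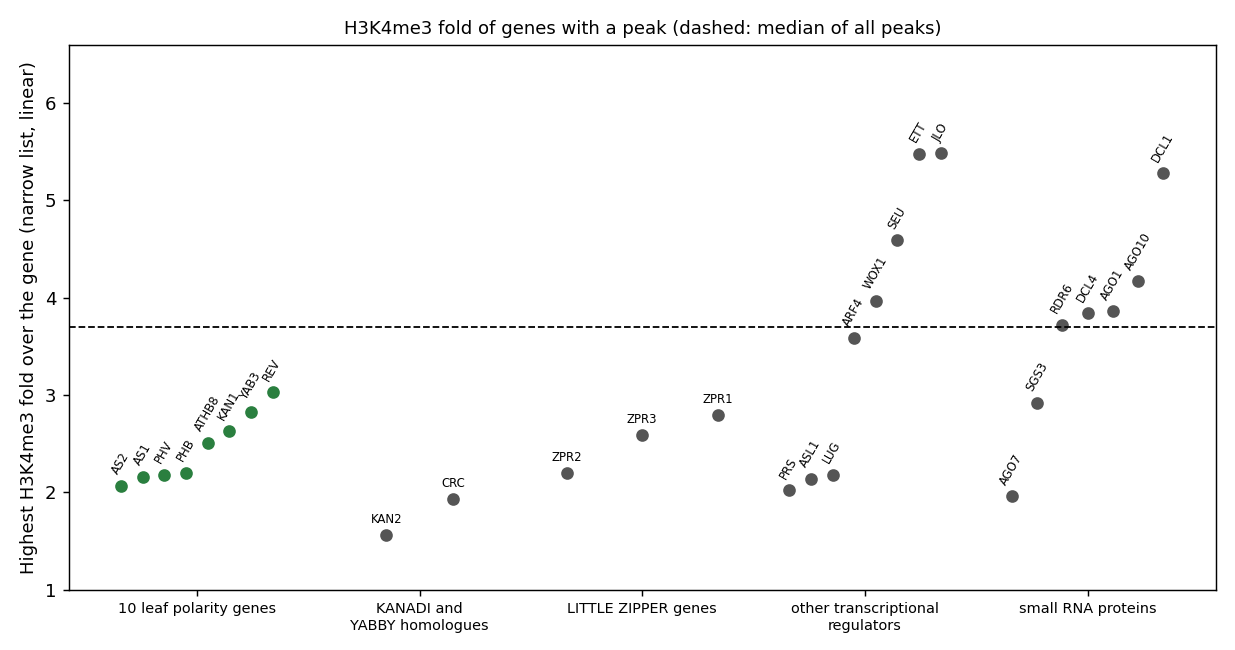
Highest H3K4me3 fold over the gene (narrow list, linear scale) for the 8 leaf polarity genes with a peak (green) and for pathway genes with a peak, by role (grey); the dashed line is the median of all peaks, 3.7. The 8 members lie from 2.07 to 3.03, KAN2, CRC, AGO7 and PRS (2.02) below them, and JLO, ETT and DCL1 at 5.28 to 5.49.

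Among the 11 microRNA genes of the list, H3K4me3 marked 5, beside 46.0% of all 326 microRNA genes: MIR165A, MIR166A, MIR166B, MIR166C and MIR166G of the family that targets HD-ZIP III transcripts. MIR166A (AT2G46685) had the highest H3K4me3 fold of these, 4.73, with H3K27ac of fold 1.51 and the only broad H3K27me3 among them (400 bp, fold 1.6), beside 3.07% of microRNA genes. These genes are 105 to 182 bp long, so their windows are mostly flank and a peak there can belong to another gene. The microRNA genes without H3K4me3 in the window were MIR165B, MIR166D, MIR166E, MIR166F, MIR390A and MIR390B. MIR165B had H3K27me1 in both lists and MIR390A had H3K27ac. ZPR4, a LITTLE ZIPPER gene of the HD-ZIP III pathway that the gene table lists as non-coding, had no H3K4me3. It had H3K27ac in the flank only (249 bp, fold 1.52) and narrow H3K27me1 over the gene (353 bp, fold 1.82). All 3 TAS3 genes, whose small RNAs limit ETT and ARF4, were marked by H3K4me3 within the window (folds 1.58 to 5.39), beside 66.5% of the 221 genes of their class in the gene table. Only TAS3A had it over the gene itself (646 bp, fold 3.88). At TAS3B (5.39) and TAS3C (1.58) it lay in the flank only, where a peak can belong to another gene.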

How the data were processed

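The authors deposited 1 narrow and 1 broad peak list per mark, each named in the sample descriptions of all replicates of that mark. Tools in the submitters' processing notes include MACS2 2.1.0 and Bowtie2 2.1.0, with build TAIR10; the sources used here give no settings. The deposited fold is a ratio per peak, the deposited −log10 q is a q-value on the −log10 scale, and the deposited display score was not used. Peak starts were converted to counting from 1.

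Gene spans came from a table of assembly TAIR10.1, used for overlap and distances; its coordinates are not given. To check that both builds share a frame, H3K4me3 summits were moved by offsets of 250 bp within 5000 bp either way, and in 59 of 59 segments of 2 Mb the most summits lay within 500 bp of an end at an offset of 0 bp. Overlap counting was tested on simulated data. All 10 members and all 41 pathway identifiers were found in the table. Members and lists were chosen with earlier results of these data known; the roles into which the pathway list was split were assigned after values were seen. The genes named are all members, pathway genes with H3K27me3, protein-coding pathway genes with no H3K4me3 peak, the 3 protein-coding ones of highest H3K4me3 fold, and genes that a member's peak also touches; other pathway genes named (KAN2, KAN3, CRC, AGO7, ZPR4, and the microRNA and TAS3 genes other than MIR166A) were chosen after their values were seen. Gene sequences were not used here. Alternatives were the other list, an overlap of 1 or 300 bp, flanks of 0 bp, 500 bp and 2 kb, −log10 q of at least 5, and peaks by their middle or summit. Python 3.11.15, numpy 2.4.6, pandas 2.3.3, scipy 1.17.1 and matplotlib 3.10.9 were used.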

Additional observations from a re-analysis of the deposited data

How the results depend on the processing

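The 8 members with H3K4me3 were the same under every alternative except the broad list, which gave 7 without PHB. For H3K27ac the count of 5 members became 0 in the broad list, 3 with no flank, 3 with a flank of 500 bp and 3 with −log10 q of at least 5. For H3K27me1 the 3 members became 7 in the narrow list, and for H3K27me3 the 3 became 1 (YAB3) with −log10 q of at least 5, a filter on the broad q whose link to the coordinates is unsettled. Of the pathway genes, H3K4me3 marked 13 in the broad list, H3K27ac 0 in the broad list, H3K27me1 11 in the narrow list and 0 with −log10 q of at least 5, and H3K27me3 0 in the narrow list and 0 with −log10 q of at least 5. The broad H3K27ac list holds 163 peaks, and why it is short was not tested. The H3K27ac peaks counted for YAB3 and AS2 lay 401 and 507 bp outside the gene. Those of FIL and AS2 had −log10 q of 3.27 and 3.06, under the filter of 5. The cause of the other changes was not tested. The other 40 of 52 alternative counts were within 1.5 times the reported one. No paired analysis was possible because a list pools the replicates of a mark and gives no value per replicate; for the same reason no replicate could be left out.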
